A study of Rattus norvegicus with 10 samples.

Results

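The genes of cholesterol and fatty acid synthesis were followed in whole livers of 10 cirrhotic rats. A list of 34 genes was set up in 2 arms, a sterol arm of 20 genes and a lipogenic arm of 14 genes, and each gene was read by the probe set with its symbol alone that varied most over the 10 arrays. Of the 34 genes, 33 had such a probe set, out of 14217 genes read in this way, and Hmgcs1 was not analysed here. All rats were male Wistar rats in which cirrhosis had been induced by inhaled CCl4. The 5 vehicle rats received the vehicle solution once a week, and the 5 CVX-060 rats received CVX-060, an inhibitor of the vessel ligand Ang2 that leads to activation of the receptor Tie2, by tail vein in weekly doses of 10 mg/kg over 4 weeks. Age at sampling and hour of sampling were not given in the sources used here, and no healthy rat is among the 10. After quality control the paper kept only 2 replicates per treatment for its own analysis, and its methods do not name them. All 10 arrays were used here. An array was made for each rat from total RNA of frozen whole liver, so a value sums over hepatocytes and all other liver cells, and fewer cells of a type cannot be told apart from less RNA per cell. Every value is the log2 signal of a probe set as deposited, on which a difference of 1 is a change of 2-fold.

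Hepatocytes build cholesterol from acetyl-CoA through mevalonate, squalene and lanosterol, and they build fatty acids from the same acetyl-CoA through malonyl-CoA. Both routes are driven by the SREBP transcription factors, SREBP-2 (gene Srebf2) mainly for sterols and SREBP-1c (gene Srebf1) mainly for fatty acids, and the proteins are held in the endoplasmic reticulum by INSIG when sterols are plentiful. Feeding and insulin raise the lipogenic genes and fasting lowers them, whereas the sterol genes follow the cholesterol content of the cell.

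The hepatocyte marker list had 8 of its 9 measured genes above background in every rat, with albumin between 14.77 and 14.81, while Fgb, a fibrinogen chain, was above background in 0 rats. Background was taken per array from 20 probe sets of receptors of smell (olfactory, vomeronasal and trace amine), at their 95th percentile, and lay between 5.34 and 6.06. On the first principal component over all genes, with 35.4% of the variance, vehicle rat 2 scored 34.5 and CVX-060 rat 5 scored 35.5, far from the -26.2 to 9.74 of the remaining 8 rats. In these 2 rats the male-type gene Cyp2c11 lay at 8.99 and 11.42 against 12.69 or more in the others, and the female-type gene Cyp2c12 at 12.71 and 12.02 against 9.79 or less. The clock gene Bmal1 was between 4.87 and 5.75 in vehicle rats 3, 4 and 5 and CVX-060 rats 4 and 5, and between 7.90 and 8.75 in the other 5 rats. Whether these splits have a part in the values that follow was not tested beyond the recalculations without the 2 rats and with Bmal1 in the model.

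The sterol arm, read by the most variable probe set of each gene, moved largely as a block between rats. For each rat a score was computed as the mean, over the 19 measured members, of the log2 signal minus the mean of that gene over the 10 rats. In vehicle rats 1 to 5 the sterol score was -0.02, -0.07, 0.21, 0.47 and -0.67, and in CVX-060 rats 1 to 5 it was 0.10, 0.20, 0.40, -0.23 and -0.37. Both ends of the range were thus in the vehicle group, and the CVX-060 rats lay between them. In vehicle rat 5 all 19 members were below their own 10-rat mean, and 12 of them had their lowest value of all there. In vehicle rat 4 the count was 18 members above the mean with 9 highest values, and in CVX-060 rat 3 it was also 18 above the mean, with 5 highest values. The median SD of a sterol member over the 10 rats was 0.39 on the log2 scale, against a median of 0.18 over all genes.

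**Figure D1:**
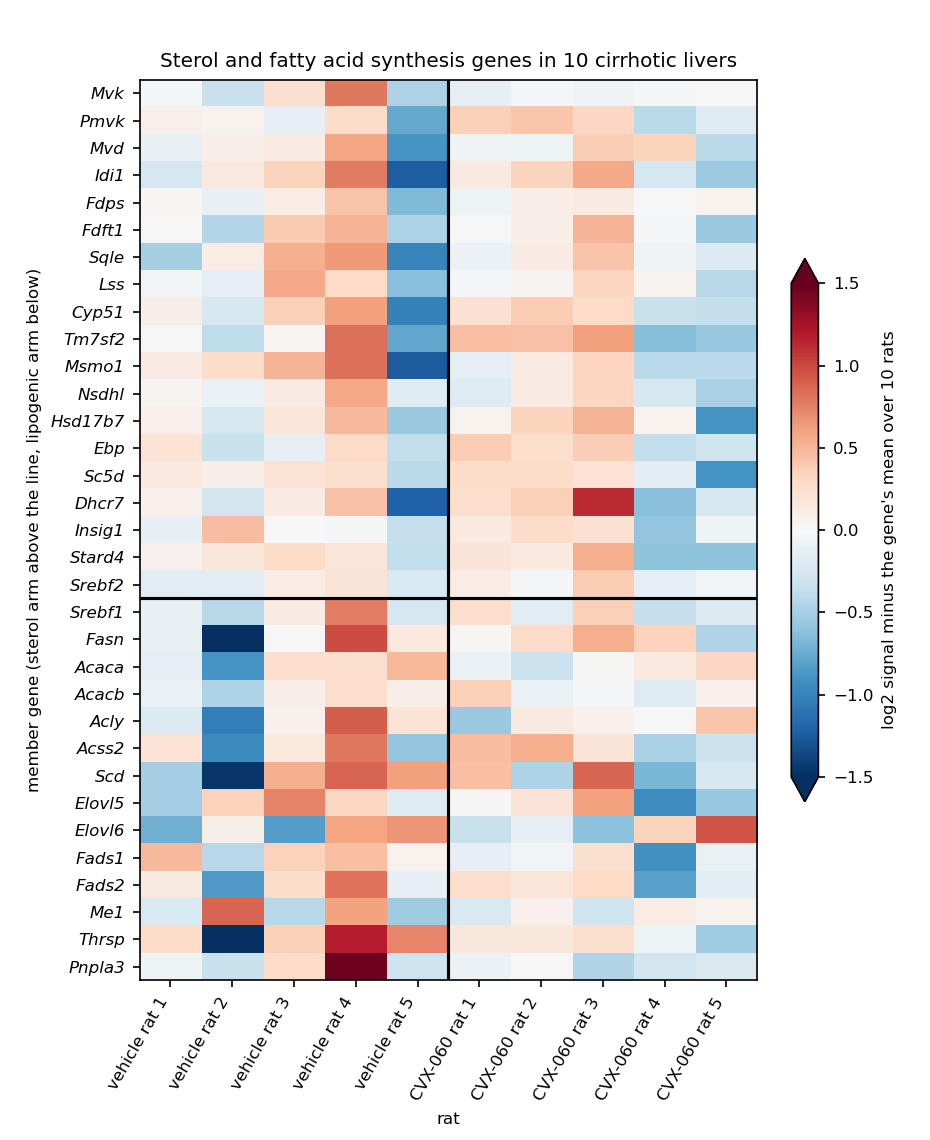
Colour map of the 33 measured members (rows) in the 10 rats (columns), as log2 signal minus the mean of the gene over 10 rats, with the sterol arm above and the lipogenic arm below the horizontal line and vehicle rats left of the vertical line. All 19 sterol members are below their mean in vehicle rat 5, while 8 of the 14 lipogenic members are above theirs in the same rat, and all 14 lipogenic members are above their mean in vehicle rat 4.

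Idi1, the isomerase that supplies both isoprene units, followed the rest of the sterol arm most closely, with a Pearson r of 0.97 over the 10 rats. Next came Cyp51, the lanosterol demethylase, with 0.96, and Tm7sf2, a sterol reductase late in the pathway, with 0.91. Of the 19 members, 17 had an r of at least 0.7 with the mean of the other members, and among the 14184 genes that belong to neither arm 1.26% reached 0.7 with the sterol score. Without vehicle rat 2 and CVX-060 rat 5 the counts were 19 of 19 members and 3.17%. Since all points share the same 10 arrays, these correlations are given as a description. Among the probe sets used, the exceptions were Mvk, mevalonate kinase, with 0.65 and Insig1, which encodes the retention protein of the SREBPs, with 0.49. Other sterol probe sets above background in all 10 rats were not all as close to the rest of the arm. Their r was 0.94 for Idi1, 0.89 for Fdft1 and Hsd17b7, 0.85 for Cyp51 and 0.78 for Nsdhl. It was 0.68 for Mvk, 0.57 for Lss, 0.60 and 0.48 for Stard4, and 0.88 and -0.09 for Sc5d. Among the 171 pairs of sterol members the median r was 0.71, and 170 pairs were above 0.

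The promoters of these 3 leading members are printed because their genes kept closest to the arm. They are the 250 bases before the transcription start in RefSeq on rat build GRCr8, read 5′ to 3′ on the strand of the gene, with capitals for CCAAT (or its reverse ATTGG), the box bound by NF-Y, and for GGGCGG (or its reverse CCGCCC), the GC box bound by Sp1.
Idi1, chr17:66547525-66547774, minus strand: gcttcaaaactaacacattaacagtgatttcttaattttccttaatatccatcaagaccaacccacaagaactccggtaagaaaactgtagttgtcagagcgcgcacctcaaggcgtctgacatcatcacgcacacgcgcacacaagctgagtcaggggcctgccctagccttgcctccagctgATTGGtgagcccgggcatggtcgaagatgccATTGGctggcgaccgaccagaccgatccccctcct
Cyp51, chr4:30991443-30991692, plus strand: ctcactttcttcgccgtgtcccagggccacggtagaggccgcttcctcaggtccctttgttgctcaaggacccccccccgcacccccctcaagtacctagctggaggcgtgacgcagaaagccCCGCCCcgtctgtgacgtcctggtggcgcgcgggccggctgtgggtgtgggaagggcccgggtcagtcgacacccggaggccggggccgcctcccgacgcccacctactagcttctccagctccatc
Tm7sf2, chr1:212789542-212789791, minus strand: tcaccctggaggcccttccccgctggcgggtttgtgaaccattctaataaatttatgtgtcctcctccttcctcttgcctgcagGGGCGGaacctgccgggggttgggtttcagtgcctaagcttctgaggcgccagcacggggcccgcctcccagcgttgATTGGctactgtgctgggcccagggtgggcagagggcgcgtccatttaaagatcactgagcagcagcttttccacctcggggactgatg
Over the whole window of 250 bases before to 50 after the start, searched on both strands, CCAAT stood in 13 of the 15 sterol members with a promoter in the table (86.7%) and in 38.6% of the 11733 measured genes with a promoter. GGGCGG stood in 13 of 15 (86.7%) against 58.6%, and the E-box CACGTG in 2 of 15 (13.3%) against 9.35%. The sterol regulatory element in the form TCACNCCAC stood in 0 of 15 against 1.2%, which says only that these letters are not in this window.

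The 4 sterol members that varied most over the rats were Dhcr7, Idi1, Msmo1 and Tm7sf2. Dhcr7, the reductase of the last step to cholesterol, was at 10.01, 9.66, 10.06, 10.38 and 8.73 in vehicle rats 1 to 5 and at 10.21, 10.30, 11.06, 9.31 and 9.69 in CVX-060 rats 1 to 5. The lowest value was in a vehicle rat and the highest in a CVX-060 rat, 5.03-fold apart, and the groups overlapped between 9.31 and 10.38. The mean was 9.77 ± 0.63 (SD, n = 5) with vehicle and 10.11 ± 0.66 with CVX-060, a log2 difference of 0.35 (95% interval -0.45 to 1.15) that did not pass the limma test (adjusted p = 1.0). For Idi1 the values were 9.51, 9.91, 10.10, 10.54 and 8.53 with vehicle and 9.90, 10.10, 10.34, 9.50 and 9.22 with CVX-060. All 5 CVX-060 values lay inside the vehicle range, and the difference was 0.09 (-0.68 to 0.87). Msmo1, the methylsterol monooxygenase, gave 11.34, 11.49, 11.72, 12.04 and 9.96 with vehicle and 11.07, 11.34, 11.54, 10.81 and 10.83 with CVX-060. Here too the CVX-060 values lay inside the vehicle range, with vehicle rat 5 at the bottom, and the difference was -0.19 (-0.94 to 0.56). Tm7sf2 was at 10.24, 9.86, 10.27, 11.07 and 9.47 with vehicle and at 10.69, 10.68, 10.86, 9.61 and 9.68 with CVX-060. Its CVX-060 rats fell into 3 high and 2 low values, all within the vehicle range, for a difference of 0.12 (-0.62 to 0.87).

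The remaining sterol members named here are that with the smallest p and the regulators. Nsdhl, a dehydrogenase in the removal of sterol methyl groups, gave 10.78, 10.64, 10.86, 11.32 and 10.56 with vehicle and 10.55, 10.87, 11.06, 10.50 and 10.26 with CVX-060. The lowest 2 values were in CVX-060 rats and the highest in vehicle rat 4, and the difference of -0.19 (-0.58 to 0.21) had an unadjusted limma p of 0.317 (exact permutation p = 0.349), the lowest of the sterol arm. Srebf2 was at 8.08, 8.09, 8.37, 8.44 and 8.03 with vehicle and at 8.36, 8.23, 8.63, 8.11 and 8.21 with CVX-060. It spread little between rats, with an SD of 0.19 over the 10, its highest value was in CVX-060 rat 3, and the difference was 0.11 (-0.16 to 0.37). Insig1 was at 12.52, 13.11, 12.65, 12.63 and 12.30 with vehicle and at 12.79, 12.92, 12.87, 12.06 and 12.59 with CVX-060. Vehicle rat 2 had the highest Insig1 value, although its sterol score was only -0.07, and the group difference was 0.00 (-0.41 to 0.42). The other sterol members differed by between -0.13 (Stard4, a cholesterol transport protein) and 0.19 (Pmvk, phosphomevalonate kinase).

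The lipogenic arm varied more, with a median member SD of 0.53, and other rats were at its lower end. In vehicle rats 1 to 5 the lipogenic score was -0.12, -0.70, 0.15, 0.73 and 0.07, and in CVX-060 rats 1 to 5 it was 0.04, 0.03, 0.14, -0.27 and -0.07. Vehicle rat 2 was lowest, with the lowest value of 9 of the 14 members, and vehicle rat 4 was highest, with the highest value of 8 members. All 14 members were above their 10-rat mean in vehicle rat 4, and 11 of 14 were below it in vehicle rat 2. The 5 CVX-060 scores had an SD of 0.16 and the 5 vehicle scores an SD of 0.51, with these 2 rats at the ends of the vehicle range.

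In the lipogenic arm, 11 members were above background in all 10 rats. Acacb, which makes malonyl-CoA at the mitochondrion, and Pnpla3, a lipid droplet protein, were above it in 0 rats, and the Elovl6 probe set in 3 rats. Fads2, a desaturase of polyunsaturated fatty acids, kept closest to the rest of the arm with an r of 0.88, followed by Srebf1 with 0.84, Thrsp with 0.81 and Scd with 0.81. An r of at least 0.7 was found for 8 of 14 members, against 1.96% of the 14184 genes of neither arm with the lipogenic score. Without vehicle rat 2 and CVX-060 rat 5 the counts were 5 of 14 members (Srebf1, Acly, Fads2, Thrsp and Pnpla3) and 2.58%. Thrsp and Srebf1 then had an r of 0.85 each and Fads2 of 0.80, while Scd fell to 0.64, Fasn to 0.67 and Acss2, which makes acetyl-CoA from acetate, to 0.54. The promoters of Fads2 and Srebf1, the closest followers over all 10 rats, are shown in the same way as above, with both RefSeq starts of Srebf1.
Fads2, chr1:216172034-216172283, minus strand: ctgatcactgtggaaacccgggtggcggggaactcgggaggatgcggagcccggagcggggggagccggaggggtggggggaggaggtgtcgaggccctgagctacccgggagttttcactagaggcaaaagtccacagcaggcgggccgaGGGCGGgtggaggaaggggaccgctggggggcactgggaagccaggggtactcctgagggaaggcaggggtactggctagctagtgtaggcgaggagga
Srebf1, chr10:45519011-45519260, minus strand: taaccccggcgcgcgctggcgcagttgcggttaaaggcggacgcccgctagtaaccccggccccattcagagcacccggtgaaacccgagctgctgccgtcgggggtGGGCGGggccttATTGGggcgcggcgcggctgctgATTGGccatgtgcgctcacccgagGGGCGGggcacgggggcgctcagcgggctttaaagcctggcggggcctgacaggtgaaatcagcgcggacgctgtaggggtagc
Srebf1, chr10:45529165-45529414, minus strand: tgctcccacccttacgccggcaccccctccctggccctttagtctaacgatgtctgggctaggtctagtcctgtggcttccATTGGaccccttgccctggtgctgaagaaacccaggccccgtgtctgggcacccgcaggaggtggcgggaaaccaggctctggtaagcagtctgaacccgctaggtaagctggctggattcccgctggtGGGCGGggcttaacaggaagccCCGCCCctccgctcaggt
Among the 11 lipogenic members with a promoter in the table, CCAAT stood in 8 (72.7%), against 38.6% of the measured genes with a promoter. GGGCGG stood in 8 (72.7%) against 58.6%, CACGTG in 1 (9.09%) against 9.35% and TCACNCCAC in 0 against 1.2%.

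Srebf1 was at 9.58, 9.27, 9.82, 10.46 and 9.43 in vehicle rats 1 to 5 and at 9.95, 9.53, 10.05, 9.35 and 9.48 in CVX-060 rats 1 to 5. The ends of its range were vehicle rats 2 and 4, as for the score, and the difference was -0.04 (-0.53 to 0.46). Fasn, the fatty acid synthase itself, gave 8.77, 7.14, 8.90, 9.86 and 9.03 with vehicle and 8.90, 9.18, 9.43, 9.24 and 8.44 with CVX-060. Vehicle rats 2 and 4 were 6.63-fold apart with all CVX-060 rats between them, and the difference was 0.30 (-0.63 to 1.22). Scd, which places the double bond of oleic acid, was at 11.59, 10.64, 12.64, 12.97 and 12.71 with vehicle and at 12.55, 11.64, 12.97, 11.42 and 11.85 with CVX-060. High values occurred in both groups, the lowest again in vehicle rat 2, and the difference was -0.02 (-1.05 to 0.998).

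Thrsp, a protein of lipogenic tissues that responds to thyroid hormone and carbohydrate, had the widest range of all 33 members. It was at 11.90, 9.14, 11.99, 12.81 and 12.36 with vehicle and at 11.80, 11.80, 11.87, 11.56 and 11.10 with CVX-060. Vehicle rat 2 was 12.7-fold below vehicle rat 4, while the CVX-060 rats stayed within 11.10 and 11.87. The group means were 11.64 ± 1.44 and 11.62 ± 0.32 (SD, n = 5 each), and the difference was -0.02 (-1.30 to 1.27). Both other Thrsp probe sets followed the same rats, with r values of 0.995 and 0.997 to that used.

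Fads1, the partner desaturase of Fads2, had the smallest p of the 33 members. Its values were 12.54, 11.63, 12.39, 12.49 and 12.10 with vehicle and 11.92, 12.01, 12.29, 11.14 and 11.95 with CVX-060. The 3 highest values were in vehicle rats, but vehicle rat 2 lay below 4 of the 5 CVX-060 rats. The difference was -0.37 (-0.88 to 0.14), with an unadjusted limma p of 0.135 and an exact permutation p of 0.198. Pnpla3 was at 3.85, 3.59, 4.21, 5.38 and 3.62 with vehicle and at 3.83, 3.92, 3.47, 3.65 and 3.70 with CVX-060. Only vehicle rat 4 stood out, no value exceeded the background of its array, and the difference was -0.42 (-1.08 to 0.25).

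Over all 10 rats, Elovl5, Elovl6 and Me1 followed the rest of the lipogenic arm least. Elovl6, the elongase of long saturated fatty acids, was at 4.82, 5.62, 4.71, 6.13 and 6.19 with vehicle and at 5.19, 5.42, 4.92, 5.87 and 6.48 with CVX-060. Its highest value was in CVX-060 rat 5, the groups overlapped over nearly their whole range, and the difference was 0.08 (-0.73 to 0.89). The r with the rest of the arm was -0.07 for Elovl6, 0.20 for Elovl5, an elongase of polyunsaturated fatty acids, and -0.30 for Me1, the malic enzyme that supplies NADPH. Without vehicle rat 2 and CVX-060 rat 5 it was 0.14 for Elovl6, 0.51 for Elovl5 and 0.44 for Me1, so that the low value of Elovl5 and the sign for Me1 rested on those rats. A brighter Elovl6 probe set, above background in all 10 rats, tracked that used with an r of 0.97 and the rest of the arm with 0.07. The other probe sets of Elovl5 and Me1 had an r of 0.21 and 0.12 with the rest of the arm. Elovl5 followed the sterol score more closely, with an r of 0.65 and, without vehicle rats 4 and 5, 0.80. Among all 91 pairs of lipogenic members the median r was 0.48, with 71 pairs above 0. Among the 55 pairs without these 3 genes, which were set aside after their values were seen, it was 0.65 and all pairs were above 0.

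**Figure D2:**
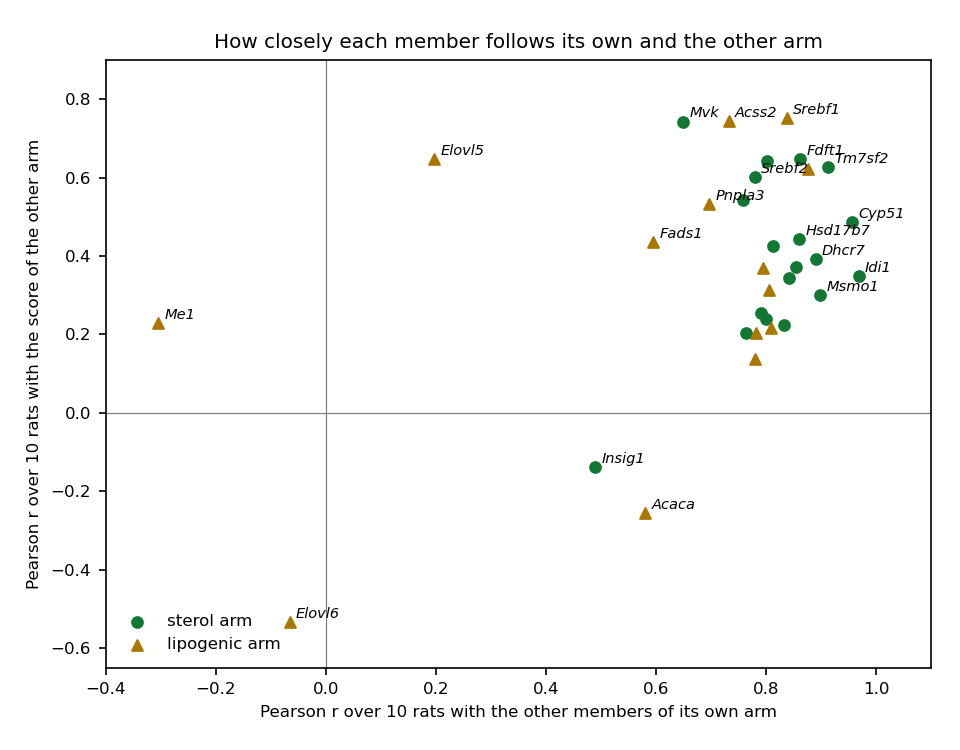
For each of the 33 members, the Pearson r over 10 rats with the mean of the other members of its own arm (horizontal) and with the score of the other arm (vertical), with circles for the sterol arm and triangles for the lipogenic arm; members in the crowded middle are left unlabelled. Sterol members sit at the right with r values up to 0.97, Insig1 lies apart at 0.49, and Me1, Elovl6 and Elovl5 are at the left with -0.30, -0.07 and 0.20.

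Across rats the arms were related, but loosely. The sterol and lipogenic scores had a Pearson r of 0.47 and a Spearman rho of 0.64 over the 10 rats, and no p is given because the members were chosen with results of these arrays known. Without vehicle rats 4 and 5, the farthest from the median sterol score, r was 0.53 and rho 0.79. With each group's mean subtracted, r was 0.48 and rho 0.78. The value rested on single rats, since r fell to 0.22 without vehicle rat 4 and rose to 0.70 without vehicle rat 5. Without vehicle rat 2 and CVX-060 rat 5, which stood apart over all genes, r was 0.55. Over the 266 pairs of a sterol with a lipogenic member the median r was 0.32, below the 0.71 within the sterol arm and the 0.48 within the lipogenic arm.

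**Figure D3:**
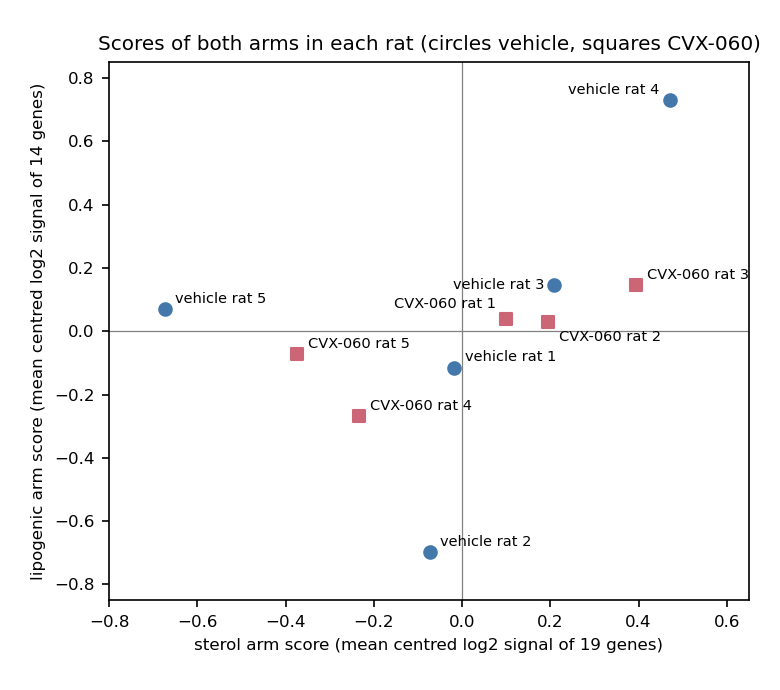
Lipogenic arm score against sterol arm score in each rat, both as mean log2 signal centred on the 10 rats, with circles for vehicle and squares for CVX-060. Vehicle rat 4 is high on both axes, vehicle rat 5 is lowest on the sterol axis (-0.67) with a lipogenic score of 0.07, and vehicle rat 2 is lowest on the lipogenic axis (-0.70) with a sterol score of -0.07.

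The rats at the ends of the plot of both scores show where the arms parted. In vehicle rat 5 the sterol score was 0.74 below the lipogenic score, with 0 of 19 sterol members but 8 of 14 lipogenic members above their mean. In vehicle rat 2 the lipogenic score was 0.62 below the sterol score, with 3 of 14 lipogenic and 8 of 19 sterol members above their mean. The score of the 8 measured fasting genes was high in the latter rat, at 1.22 against -0.51 to 0.24 in the others. Pdk4, which spares glucose in fasting, was at 13.25 there and at 11.75 or less elsewhere, and the fasting hormone Fgf21 at 11.92 against 9.48 or less. The rest of the list stood out less. Angptl4 was at 11.19 there against 10.96 or less, and Ppargc1a at 8.77 against 8.62 or less. Tat was at 12.46 against 12.38 or less, Pck1 at 13.86 against 13.76 or less and Igfbp1 at 13.82 against 13.76 or less. Cpt1a was at 9.36 there but at 9.54 in vehicle rat 5. Over the 10 rats the lipogenic score had an r of -0.71 with the fasting score, but without vehicle rats 2 and 4 it was -0.22, so that the relation rests on those rats. The sterol score had an r of -0.24 with the fasting score. Cyp2c11 and Cyp2c12, which also set vehicle rat 2 apart, had an r of 0.68 and -0.70 with the lipogenic score. Those 2 values were not recalculated without vehicle rats 2 and 4. The part of feeding state in these values was not tested, nor was that of male- and female-type genes.

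The sterol score also moved with the mean of the hepatocyte markers. Their score ran from -0.11 to 0.12, a far narrower range than that of the sterol score, and r was 0.69 over 10 rats and 0.87 without vehicle rats 4 and 5. Fgb, above background in 0 rats, is part of that score. It was lowest in vehicle rat 5, at 3.89 against 4.24 or more in the other rats. The hepatocyte score was not recalculated without Fgb. Single markers were less close to the sterol score over the 10 rats. Their r was 0.63 for Ttr, 0.47 for Fgb, 0.43 for Apoa2, 0.38 for Ahsg and 0.265 for Alb. It was 0.25 for Hnf4a, 0.11 for Apoa1, -0.01 for Cps1 and -0.12 for Serpina1. By group, the mean log2 signal of the 9 hepatocyte markers was between 12.00 and 12.10 with vehicle and between 11.96 and 12.19 with CVX-060. For the lipogenic score r with the hepatocyte markers was 0.47. The part of hepatocyte content in either arm was not tested.

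The SREBP genes themselves followed the arms. The sterol score without the gene in question had an r of 0.78 with Srebf2 and of 0.75 with Srebf1, which belongs to the other arm, and Srebf1 and Srebf2 had an r of 0.82 with each other. The lipogenic score had an r of 0.84 with Srebf1, of 0.60 with Srebf2 and of -0.14 with Insig1. Without vehicle rats 2 and 4 these were 0.61, 0.62 and 0.68, so that the higher r of Srebf1 rested on those rats. Of the genes outside the list, Acat2, the thiolase that joins acetyl-CoA units ahead of mevalonate, was the closest to the sterol score with an r of 0.93, and ran from 7.78 in vehicle rat 5 to 9.83 in vehicle rat 4. It was followed by Mink1, Gulo, Cetn2, Gstk1, Mfsd13a, Acsm5 and Vill, with r values between 0.85 and 0.88. Among the genes ranked, those closest to the lipogenic score were Hes6 with 0.93, and Ttr and Phtf1 with 0.91 each. Slc25a1, the mitochondrial citrate carrier that exports the carbon for lipogenesis, had 0.90. Then came Fkbp8, Tmem131l, Sult5a1 and Abhd17a, between 0.86 and 0.89. Ttr, also on the hepatocyte marker list, ran only from 14.21 to 14.37. The r values of these genes with the lipogenic score were not recalculated without vehicle rats 2 and 4.

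CVX-060 rats did not differ from vehicle rats in either arm beyond the spread between rats. The mean sterol score was -0.02 ± 0.43 (SD, n = 5) with vehicle and 0.02 ± 0.31 with CVX-060, a difference of 0.03. The mean lipogenic score was 0.03 ± 0.51 with vehicle and -0.03 ± 0.16 with CVX-060, a difference of -0.05. In the sterol arm the CVX-060 mean was higher for 13 members and lower for 6, with a median difference of 0.08, and in the lipogenic arm it was higher for 6 and lower for 8, with a median of -0.02. Over all genes 52.6% had a higher CVX-060 mean, and the median difference was 0.01. Sterol members moved largely together between rats, so their directions are not separate observations.

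Of the 33 members, 0 passed an adjusted p of 0.05 in limma, as did 0 (0%) of the 14217 genes tested. At an unadjusted p under 0.05 the members counted 0 in either direction, where 1.27% of all genes were higher and 1.17% lower with CVX-060. The groups overlapped for all 33 members, and did not overlap for 0.485% of all genes. A missed threshold does not show that the groups were alike. The median standard error of a member's difference was 0.23 in the sterol arm and 0.31 in the lipogenic arm, and the 95% intervals reached from -1.30 to 1.27 for Thrsp but only from -0.16 to 0.37 for Srebf2.

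**Figure D4:**
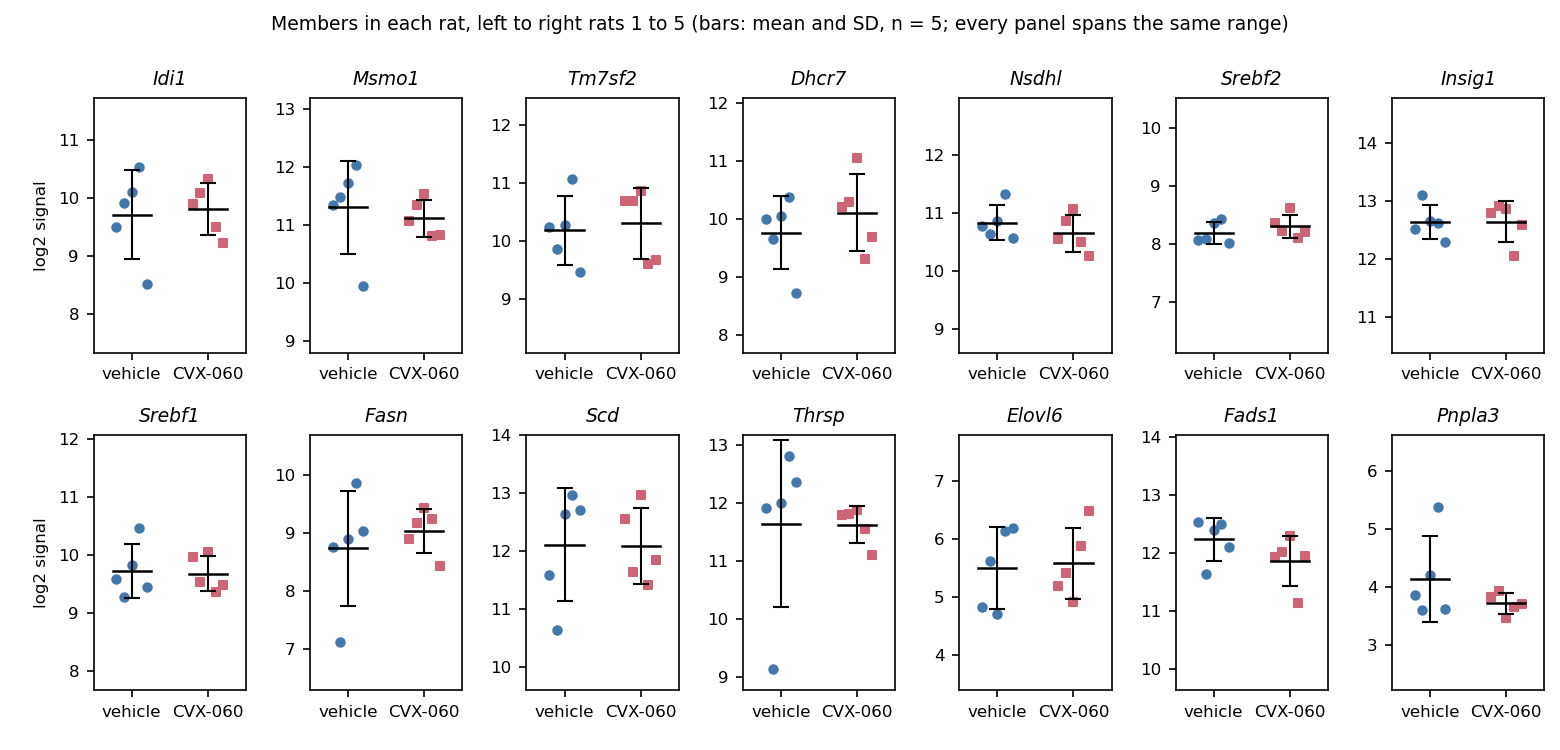
Log2 signal of 14 members in each rat (circles vehicle, squares CVX-060, rats 1 to 5 from left to right in each group) with the group mean and SD (n = 5), every panel spanning the same range of log2 units. The groups overlap in every panel, and Thrsp and Fasn show the low value of vehicle rat 2 at 9.14 and 7.14.

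Single rats set the size of several differences. Without vehicle rat 2, Fads1 differed by -0.52 and Thrsp by -0.64, both past an unadjusted limma p of 0.05 but with an adjusted p of 0.911. Without vehicle rat 5, Msmo1 differed by -0.53, also past the unadjusted threshold, with an adjusted limma p of 0.999. Fads1 and Thrsp also passed the unadjusted threshold without vehicle rat 2 and CVX-060 rat 5, at -0.54 and -0.51. The sterol score difference ran from -0.13 without vehicle rat 5 to 0.16 without vehicle rat 4, and the lipogenic score difference from -0.23 without vehicle rat 2 to 0.12 without vehicle rat 4.

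**Figure D5:**
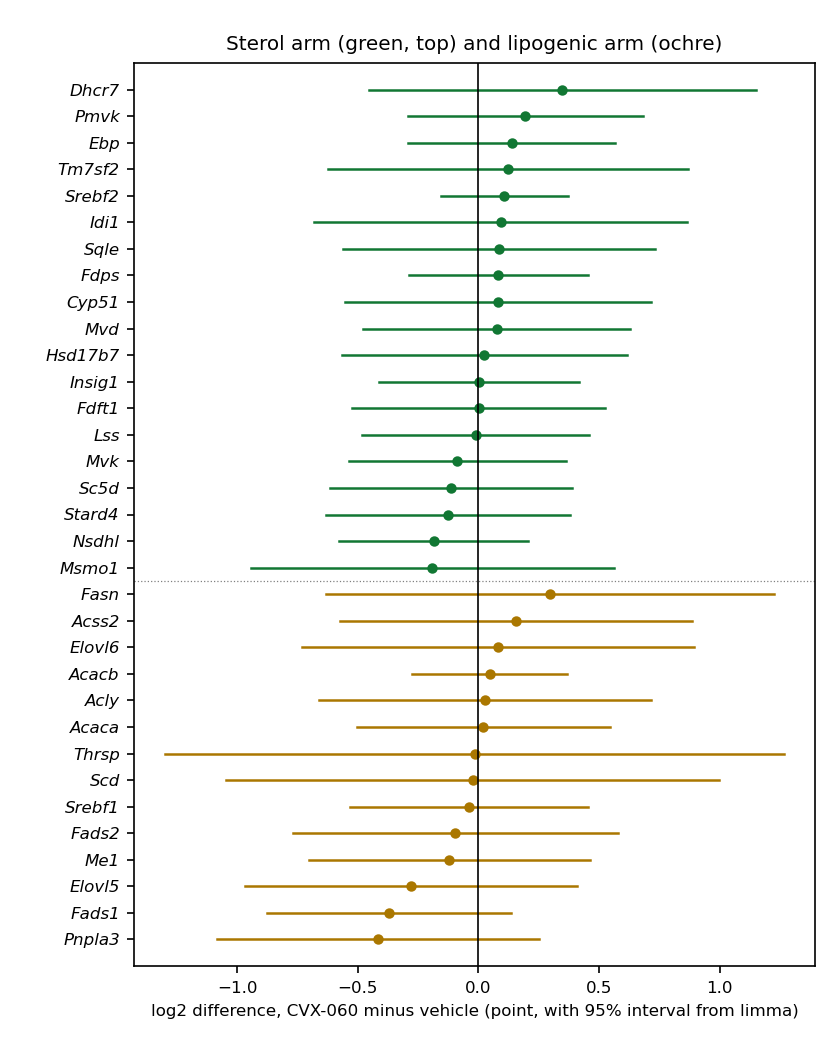
Points give the CVX-060 mean minus the vehicle mean (log2) of each of the 33 members, with its 95% interval from limma (lines), the sterol arm in green above and the lipogenic arm in ochre below. Every interval crosses 0, from the narrow interval of Srebf2 (-0.16 to 0.37) to the wide interval of Thrsp (-1.30 to 1.27).

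Further genes of both pathways were read from separate lists. Of 24 other genes of sterol handling, 19 were measured, 14 with a higher and 5 with a lower mean in CVX-060 rats, and 1 passed an unadjusted limma p of 0.05, where over all genes 52.6% had a higher mean, 1.27% passed higher and 1.17% passed lower. This was Abcg8, a transporter subunit of biliary sterol export, with a difference of 0.34 (exact permutation p = 0.0635), above background in 0 rats. Acat2 differed by 0.01, Erg28, a scaffold of sterol synthesis, by 0.11 and Rdh11, a retinal reductase, by 0.02. Of 28 other genes of lipogenesis, 25 were measured, 15 higher and 10 lower, and 3 passed the unadjusted threshold, all higher, against 1.27% of all genes. They were named after their values were seen. Acsl5, an acyl-CoA synthetase, was at 7.03, 7.11, 6.90, 7.06 and 7.20 with vehicle and at 7.28, 7.89, 7.14, 7.56 and 7.72 with CVX-060. Only CVX-060 rat 3 fell within the vehicle range, and the difference was 0.46 (exact permutation p = 0.0159). Taldo1, transaldolase of the pentose phosphate pathway, was higher by 0.17 (exact permutation p = 0.0317), and Gpam, which starts triglyceride synthesis, by 0.59 (exact permutation p = 0.103), although it was above background in 0 rats. The genes of that list closest to the lipogenic score were Slc25a1, Pklr, the liver pyruvate kinase, Pgd of the pentose phosphate pathway and Pparg, with differences of -0.13, -0.08, 0.21 and -0.19. Other genes of the list ran the other way, with r values of -0.61 for Dgat1, an enzyme of triglyceride synthesis, -0.53 for Agpat2 and -0.47 for Elovl1. The mean of the whole list had an r of 0.29 with the lipogenic score and of 0.68 with the sterol score, or 0.23 without vehicle rats 2 and 4 and 0.50 without vehicle rats 4 and 5.

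Markers of other cell types were read in the same comparison. Of the sinusoidal endothelial markers, 8 of 8 had a higher CVX-060 mean, with a median difference of 0.34 and 2, Lyve1 and Mrc1, at an unadjusted limma p under 0.05, where 52.6% of all genes had a higher mean and 1.27% passed higher. Macrophage markers had a higher mean in 8 of 8 (median 0.25), with C1qc past the unadjusted threshold, and stellate and myofibroblast markers in 10 of 10 (median 0.16), with 0 past it. The sterol score had an r of 0.31, -0.20 and 0.13 with these 3 lists and the lipogenic score of -0.05, -0.27 and -0.26. Without the 2 rats farthest in each score these were 0.13, -0.15 and -0.49 for the sterol score and 0.01, 0.27 and -0.11 for the lipogenic score, so that the sign with stellate markers for the former, and with endothelial and macrophage markers for the latter, rested on those rats. Cholangiocyte markers were higher in 4 of 6, lymphocyte markers in 6 of 8 and adipocyte markers in 3 of 7, with medians between -0.02 and 0.03. Of 12 measured clock genes 8 were lower with CVX-060, 3 of them (Per3, Nr1d1 and Nr1d2) at an unadjusted limma p under 0.05, against 1.17% of all genes. Their part in the members' values was not tested, apart from the Bmal1 covariate.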

How the data were processed

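Liver RNA of 10 rats (150 ng each) was hybridized to Affymetrix 3′ expression arrays. The authors deposited log2 signals per probe set that had been normalized between arrays. Tools listed in the submitters' processing notes are R 3.4.0, limma 3.38.2 and affy 1.56.0, and the background correction is not given in the sources used here. Array medians (5.52 to 5.57) were left as they were. Of 31099 probe sets, 57 controls and 436 with several symbols were left out. Probe sets without a gene symbol or with several gene identifiers were left out as well. The 20826 with a single symbol that remained covered 14217 genes. Each gene was read by its most variable probe set, and 18 members had more than 1. The members, arms and gene lists were chosen with earlier results of these data known.

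CVX-060 was compared with vehicle by limma 3.58.1 (lmFit, eBayes) in R 4.3.3, and p-values were adjusted over all genes (Benjamini-Hochberg). Single genes were also tested by a two-sided exact permutation test over all 252 splits, whose smallest p is 0.0079. Scores and correlations got no test. Members named with every rat's value were the 4 of each arm with the highest SD, the 2 with the smallest p, and Srebf1, Srebf2, Insig1, Fasn and Scd. The 8 genes most like each score were taken among genes above the 40th percentile of mean signal. Promoters came from RefSeq (GRCr8) and were matched by symbol for 26 of 33 members. Nothing in the labels pairs rats across groups, and p-values set the difference between group means against the spread between these rats. Precision is limited by the number of arrays. The limma step was tested on simulated data. Tables and plots were made with Python 3.11.15 (pandas 2.3.3, numpy 2.4.6, matplotlib 3.10.9, scipy 1.17.1). Alternatives were another probe set per gene, other normalizations, rats left out, a replicate block, Bmal1 as a covariate, a filter, array weights, another variance prior and other scores.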

Additional observations from a re-analysis of the deposited data

Results flagged for a closer look

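Among 70 groups of 5 rats examined, which are the members and both scores in each treatment group, 2 held a rat far from the other 4, and chance alone marks about 1 in 20 groups. Sc5d, the sterol desaturase, was at 10.77 in vehicle rat 5 against 11.27 to 11.41 in the other vehicle rats. The other Sc5d probe sets had r values of 0.88 and -0.30 to that used. Thrsp was at 9.14 in vehicle rat 2 against 11.90 to 12.81. The rats are those with the lowest sterol score and the lowest lipogenic score.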

How the results depend on the processing

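With 5 rats per group, single rats decide the sign of small differences. Under every setting run, 0 of all genes passed an adjusted p of 0.05 in limma, while at an unadjusted p under 0.05 the count over all genes was 347, from 290 to 713 with 1 rat left out, 581 without both rats that stood apart, 816 with Bmal1 as a covariate, 686 with array weights and 156 with the filter on low values, which tested fewer genes. The count of members at an unadjusted p under 0.05 went from 0 to between 0 and 2 with 1 rat left out, to 2 without both rats that stood apart and to 1 (Fads1) with array weights. With 1 rat left out the sterol score difference ran from -0.13 to 0.16, the lipogenic one from -0.23 to 0.12 and the r between the arms from 0.22 to 0.70. With Bmal1 as a covariate the score differences were -0.06 and 0.04, of opposite sign to those reported, and r was 0.69. With the replicate number as a block (replicate block), r between the arms was 0.83. The score differences cannot change under this block, in which every number holds a rat of each group. The labels give no pairing by number. Same-numbered deviations over all genes had r values from -0.17 to 0.15, which cannot settle whether same-numbered rats were handled together. The block changed no call of a member. Without Elovl5, Elovl6 and Me1, chosen after the data were seen, r was 0.45 and the lipogenic difference -0.04.

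Of 264 pairs of a named member and a setting, 226 kept the direction. With 1 rat left out, differences of those that turned ran from -0.14 to 0.26 for Elovl6, -0.10 to 0.58 for Fasn, -0.21 to 0.30 for Idi1, -0.085 to 0.15 for Insig1, -0.39 to 0.19 for Scd, -0.15 to 0.15 for Srebf1, -0.64 to 0.28 for Thrsp and -0.057 to 0.34 for Tm7sf2. Others that turned were Elovl6 without both rats that stood apart (-0.11) and with array weights (-0.077), Insig1 with array medians set to 0 (-0.0065), and Thrsp with the probe set of highest mean (0.048). With Bmal1 as a covariate Idi1 was at -0.048, Insig1 at -0.15, Scd at 0.17, Thrsp at 0.24 and Tm7sf2 at -0.035. The cause was not tested. Dhcr7, Fads1, Msmo1, Nsdhl, Pnpla3 and Srebf2 kept their direction under every setting run. Signals near background limit Acacb, Pnpla3 and Elovl6.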
